A study of Mus musculus with 2 samples.

Results

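The transcription factor genes Stat2, Stat3, Stat4, Stat6, Irf1, Irf2, Irf7 and Irf9, which serve interferon and other cytokine signals, were examined in single B cells of the mouse colon. They were taken by symbol, 8 of the 31053 genes in the count matrices. The B cells were sorted by flow cytometry out of the lamina propria, the tissue layer under the epithelium, of the colon. The mice were C57BL/6J females. Each group was 1 library made with the 10x Chromium 3′ kit version 2, which tags each captured transcript near its 3′ end with a unique molecular identifier (UMI). The day 0 library came from untreated controls. The day 14 library came from mice given 2% dextran sulfate sodium (DSS), a polysaccharide that injures the colonic epithelium, in drinking water for 7 days and then left to recover for 7 days. The treatment tag reads DSS for both libraries, so the untreated state of day 0 was taken from the protocol text and the series design. With 1 library per group there was no replicate, so no difference below was tested against the spread between animals. How many mice a library represents, and their age, the sources used here do not say. Intervals are 95% and cover counting error only.

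STAT proteins wait in the cytoplasm until a cytokine receptor and its JAK kinase phosphorylate them, then enter the nucleus and bind DNA. Type I interferons act mainly through a complex that contains Stat2 and Irf9 and binds the interferon-stimulated response element (ISRE). Interferon-gamma acts mainly through STAT dimers that bind the gamma-activated site (GAS), and Irf1 is a classical gene switched on through that site. Irf1 and Irf7 are themselves interferon-inducible activators, Irf2 is a related factor known as an antagonist of Irf1, and Stat3, Stat4 and Stat6 serve the IL-6 and IL-10, IL-12 and IL-4 pathways. Phosphorylation and nuclear entry leave no trace in a transcript count, so the values below are levels of the factors' mRNA and not of their activity.

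The libraries held 3290 cells at day 0 and 4692 at day 14, with 8091798 and 11596323 UMIs outside the immunoglobulin and mitochondrial genes, and medians of 2181.5 and 2140 such UMIs per cell. Levels are given as CPM, the UMIs of a gene scaled by all such UMIs of the library or cells in question. The sorted identity was visible in the transcripts: 12 mature B cell markers summed to 34512 CPM at day 0 and 33054 at day 14. All but 2 cells held at least 1 of their UMIs. Cd74 alone gave 226258 of 279263 and 308882 of 383303 of these UMIs, so the sum and the cell count rest mostly on it. Of the other markers, Cd79a stood at 2168 and 2222 CPM and Ms4a1 at 747 and 745 CPM. Markers of other cells were rare, at 343 and 321 UMIs for 17 T or NK cell genes, 127 and 166 for 8 epithelial genes, 166 and 165 for 5 plasmacytoid dendritic genes, 48 and 97 for 10 myeloid genes, and 0 and 400 for 6 neutrophil genes, the 400 lying in 14 cells. Of the cells kept, 17 barcodes occurred in both libraries.

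The genes lie apart in the genome (GRCm38, GENCODE M21, whole gene spans). Irf1 is at chr11:53770014-53778374 (plus strand), Irf9 at chr14:55603571-55610030 (plus), Irf7 at chr7:141262706-141266481 (minus) and Irf2 at chr8:46739732-46847458 (plus). Stat2 is at chr10:128270559-128292849 (plus), Stat3 at chr11:100885098-100939540 (minus), Stat4 at chr1:51987148-52107189 (plus) and Stat6 at chr10:127642986-127660957 (plus). Irf9 overlaps Rnf31 and Stat4 overlaps Gm28177 on the same strand, and reads in the shared stretch cannot be told apart.

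The 8 factors differed widely in abundance, from Stat4 at the top to Stat2 at the bottom on both days, and each was detected in a minority of cells. Because a 3′ library gives 1 UMI per captured transcript whatever its length, levels can be set beside each other, although capture may differ between transcripts. At day 0 Stat4 had 167.6 CPM (158.8 to 176.7), Irf2 102 CPM (95.4 to 109) and Stat3 91.8 CPM (85.3 to 98.7). Below them came Irf1 at 43.5 CPM (39.1 to 48.3), Stat6 at 30.6 (27.0 to 34.7), Irf9 at 25.6 (22.2 to 29.3), Irf7 at 17.4 (14.7 to 20.6) and Stat2 at 11.4 (9.17 to 13.9). In that order the neighbours Irf2 and Stat3, and Stat6 and Irf9, had overlapping intervals, and the other neighbours did not. At day 14 the order was Stat4, Stat3, Irf2, Irf1, Irf9, Stat6, Irf7 and Stat2. Only Stat6 and Irf7 then overlapped. A UMI of the most abundant factor, Stat4, was found in 30.9% of cells at day 0 and 33.2% at day 14, and one of the least abundant, Stat2, in 2.71% and 3.18%. None of the cells sorted here can be assumed free of these transcripts, so a share from free RNA could not be set beside them.

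Irf1 stood highest among the 8 in its ratio between the days. It had 352 UMIs at day 0 and 1000 at day 14, or 43.5 and 86.2 CPM (81.0 to 91.7), a ratio of 1.98 (1.75 to 2.24). Irf9, the DNA-binding partner of Stat2, went from 207 to 493 UMIs, 25.6 to 42.5 CPM (38.8 to 46.4), a ratio of 1.66 (1.41 to 1.96). These 2 members were at least 1.5-fold higher at day 14 and the other 6 lay within 1.5-fold. Of all 8924 genes that reached 50 UMIs in the libraries together, 1.31% were higher and 4.94% lower by this size, with a median log2 ratio of -0.09. That is 117 genes higher and 441 lower, and the split was 180 and 305 with TMM factors and 182 and 295 with median-of-ratios factors.

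Stat3 and Irf7 were higher at day 14 by a smaller step. Stat3 had 743 UMIs at day 0 and 1462 at day 14, 91.8 and 126 CPM (120 to 133), a ratio of 1.37 (1.26 to 1.5). Irf7, an interferon-inducible activator of interferon genes, had 141 and 276 UMIs, 17.4 and 23.8 CPM (21.1 to 26.8), a ratio of 1.37 (1.11 to 1.69). Stat2, the other DNA-complex partner of Irf9, had 92 and 163 UMIs, 11.4 and 14.1 CPM (12 to 16.4), a ratio of 1.24 (0.952 to 1.61). Its interval included 1 on this scale and not with TMM factors, at 1.31 (1.01 to 1.71), or median-of-ratios factors, at 1.32 (1.01 to 1.72).

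The remaining members differed little between the days. Stat4, which transmits IL-12 signals, had 1356 and 2035 UMIs, 167.6 and 175 CPM (168 to 183), a ratio of 1.05 (0.977 to 1.12), and 1.11 (1.04 to 1.19) with TMM factors. Irf2 had 827 and 1170 UMIs, 102 and 101 CPM (95.2 to 107), a ratio of 0.987 (0.902 to 1.08), and 1.05 with either of the other scalings. Stat6, the IL-4 factor, had 248 and 295 UMIs, 30.6 and 25.4 CPM (22.6 to 28.5), a ratio of 0.830 (0.699 to 0.987). That interval lay below 1, whereas with TMM factors the ratio was 0.881 (0.741 to 1.05). The number of Irf1 UMIs per Irf2 UMI, a ratio of activator to antagonist transcripts within each library, was 0.426 at day 0 and 0.855 at day 14.

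**Figure D1:**
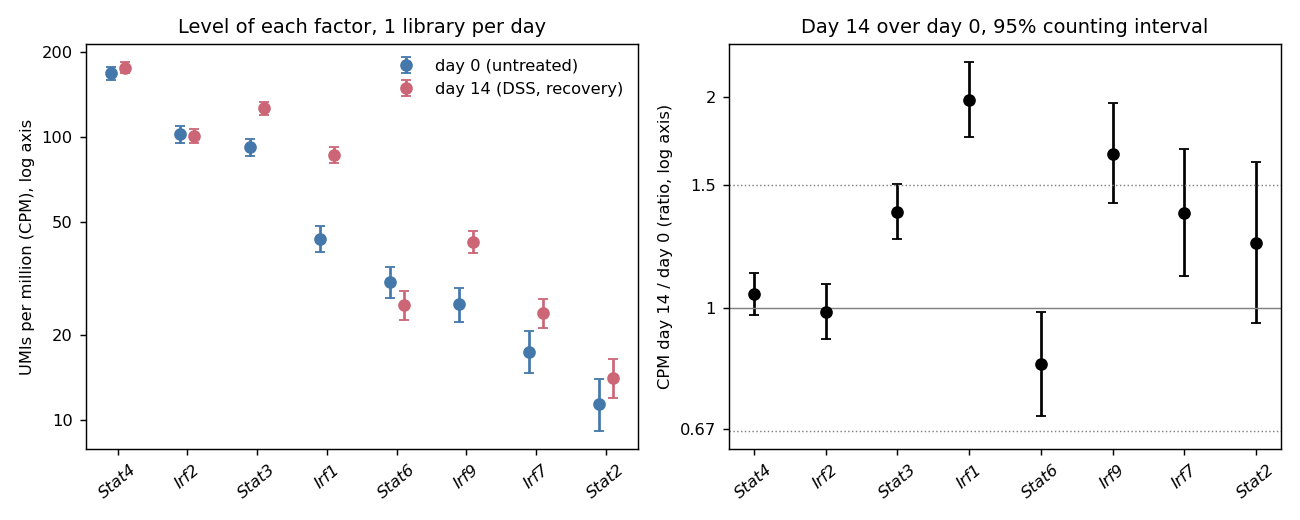
Left, level of each of the 8 factors in CPM (log axis) at day 0 and day 14, and right, the day 14 over day 0 ratio (log axis), with 95% counting intervals as bars and 1 library per group. Irf1 and Irf9 show the widest gaps between the days, while Stat4 and Irf2 nearly coincide.

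Detection followed the levels once depth was equalised. Each cell was thinned to 1000 UMIs, which 3254 of 3290 and 4615 of 4692 cells reached. An Irf1 UMI was then present in 4.33% of day 0 cells (3.66 to 5.09) and 8.06% of day 14 cells (7.29 to 8.88), against 9.45% and 16.2% before thinning. For Irf9 the thinned shares were 2.18% (1.71 to 2.74) and 4.01% (3.46 to 4.62), against 5.65% and 9.36% before. Stat3 was found in 8.64% and 11.9% of thinned cells. The shares of Irf7 (1.87% and 2.58%), Stat4 (15.7% and 16.4%), Irf2 (10.0% and 9.53%), Stat6 (3.26% and 2.60%) and Stat2 (0.983% and 1.43%) had overlapping intervals on the 2 days. The highest UMI number in any one cell was 5 for Irf1 at day 0 and 7 at day 14, and 2 cells at day 0 and 17 at day 14 held at least 4 Irf1 UMIs.

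Other genes of the pathway were read from lists of their own, whose genes needed at least 20 UMIs. Over all 10091 genes with that many UMIs, 2.22% were at least 1.5-fold higher at day 14 and 7.56% lower, with a median log2 ratio of -0.10. All 9 interferon genes searched, Ifng, Ifnb1, Ifna1, Ifna2, Ifna4, Ifne, Ifnk, Ifnl2 and Ifnl3, had 0 UMIs in both libraries. Of 7 other STAT and IRF family genes, 6 had at least 20 UMIs and none was past 1.5-fold (median log2 ratio -0.20). Irf8, a B cell and myeloid lineage factor and the most abundant of them, had 241 and 264 CPM, a ratio of 1.09 (1.03 to 1.16). Of 25 receptors, kinases and inhibitors upstream of the STATs, 24 were measured, and 2 were at least 1.5-fold higher, 3 lower and 19 between (median log2 ratio -0.12). The higher genes were the feedback inhibitors Socs3, at 1.53 (1.27 to 1.86), and Usp18, which restrains the type I receptor, at 6 and 24 UMIs and a ratio of 2.79 (1.11 to 8.35). The lower ones were the IL-6 receptor Il6ra at 0.543 (0.420 to 0.700), Socs2 at 0.529 (0.301 to 0.917) and Socs5 at 0.661 (0.407 to 1.07). The shared cytokine receptor chain Il2rg was the most abundant of this list, at 342 and 308 CPM.

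Targets of the factors were read from lists of known interferon-responsive genes. The lists were chosen with earlier results of these data known, so their counts describe the day difference and give it no separate support. Of 38 interferon-gamma target genes, 25 had at least 20 UMIs, and 15 of these were at least 1.5-fold higher at day 14, 3 lower (Ciita, Cxcl10 and Gbp8) and 7 between, with a median log2 ratio of 0.80, against 2.22% higher and 7.56% lower of all genes at the same minimum. Of 88 type I interferon targets, 68 were measured, with 14 higher, 1 lower and 53 between and a median of 0.22. The gamma list and the type I list hold genes that respond to either interferon, so the names describe the lists and not the cytokine that acted. The 3 lists for Stat3, Stat4 and Stat6 had 1 of 11, 0 of 1 and 0 of 13 measured genes at least 1.5-fold higher, against the same 2.22%.

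The DNA just upstream of the members and of the target genes that stood highest beside Irf1 is shown because those windows hold the recognition letters of the STAT and IRF proteins. The windows are the 250 bases before each RefSeq gene start on GRCm38.p6. Both strands were searched for the GAS letters TTCNNNGAA, which read the same on both strands, and for the ISRE core, GAAA and GAAA with NN between them. Neither motif contains the other, although an ISRE core can overlap a copy of itself. Capitals mark the matches. Irf1 (chr11:53769764-53770013, plus strand) had a GAS match at bases -90 to -82 from the gene start. Irf2 (chr8:46739495-46739744, plus strand) had an ISRE core at -241 to -232 and a GAS match at -224 to -216. Stat2 (chr10:128270248-128270497, plus strand) had an ISRE core on the opposite strand at -222 to -213.
Irf1: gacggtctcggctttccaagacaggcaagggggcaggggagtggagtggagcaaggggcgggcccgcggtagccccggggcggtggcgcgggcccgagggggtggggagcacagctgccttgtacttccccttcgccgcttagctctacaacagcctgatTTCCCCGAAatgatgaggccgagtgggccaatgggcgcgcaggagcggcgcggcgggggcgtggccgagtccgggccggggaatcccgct
Irf2: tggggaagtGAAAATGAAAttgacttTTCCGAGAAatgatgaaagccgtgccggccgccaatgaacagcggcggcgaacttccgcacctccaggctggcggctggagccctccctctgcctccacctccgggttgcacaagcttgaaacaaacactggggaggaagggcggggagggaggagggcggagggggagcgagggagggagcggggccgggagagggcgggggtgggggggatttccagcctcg
Stat2: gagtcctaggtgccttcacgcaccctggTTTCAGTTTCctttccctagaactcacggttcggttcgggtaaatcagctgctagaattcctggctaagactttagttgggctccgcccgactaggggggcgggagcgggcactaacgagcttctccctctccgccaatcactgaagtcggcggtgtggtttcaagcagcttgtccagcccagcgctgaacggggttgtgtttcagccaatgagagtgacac

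Of the other members, Stat4 had an ISRE core in its second RefSeq window, and none of these letters was found in the windows of Stat3, Stat6, Irf7 and Irf9. A GAS match is in 7.02% of all 32851 windows and an ISRE core in 2.98%. Counted by gene, GAS letters were upstream of 12 of 24 interferon-gamma targets and 6 of 72 type I targets, against 8.13% of all 27025 genes. ISRE cores were upstream of 14 of 24 and 27 of 72, against 3.46% of all genes. These counts describe letters in a window, not bound sites.

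The 5 interferon-gamma targets that stood highest beside Irf1 at day 14 are the GTPases Tgtp2 (chr11:49064261-49064305, minus strand), Igtp (chr11:58199499-58199543, plus strand) and Tgtp1 (chr11:48992302-48992346, minus strand), the inhibitor Socs1 (chr16:10785592-10785631, minus strand) and the serine protease inhibitor Serpina3f (chr12:104214411-104214443, plus strand). The stretches of their RefSeq windows around the matches follow on the gene's strand, with matches in capitals.
Tgtp2: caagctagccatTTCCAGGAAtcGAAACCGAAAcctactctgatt
Igtp: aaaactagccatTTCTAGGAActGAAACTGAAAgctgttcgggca
Tgtp1: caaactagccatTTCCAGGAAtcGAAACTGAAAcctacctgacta
Socs1: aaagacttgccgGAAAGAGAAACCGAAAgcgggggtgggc
Serpina3f: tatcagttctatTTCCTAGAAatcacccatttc
The 3 GTPase genes carry a GAS match followed closely by an ISRE core, Socs1 carries ISRE cores that overlap, and Serpina3f carries a GAS match alone.

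Single cells of each day were then split by whether they held a UMI of a member, and the target lists were compared between them. A cell without a UMI may still hold the transcript undetected. Cells with a UMI were also deeper: the median was 2356 UMIs in the 759 Irf1-positive day 14 cells and 2106 in the other 3933. For this reason each ratio is on the CPM scale and its value within depth deciles was computed as well. At day 14 Irf1, Irf7, Irf9 and Stat2 marked cells with higher interferon targets, while beside Stat3, Stat4, Stat6 and Irf2 the ratios of the 2 lists lay between 0.916 and 1.12. Cells with at least 2 UMIs of other cells' markers were 2.50% of Irf1-positive and 1.60% of Irf1-negative day 14 cells. With those cells left out the gamma list ratio beside Irf1 was 1.57. The gap was wider at day 0 for the rarer members, at 6.61% of Irf7-positive and 2.81% of Irf7-negative cells, and 6.74% and 2.84% for Stat2.

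Irf1 showed the widest gap for the interferon-gamma list. Its positive cells had 1331 CPM of the summed list and its negative cells 855, a ratio of 1.56 (1.49 to 1.63), and 1.52 within depth deciles. Of 21 targets with an expected count of at least 10 in those cells, 16 were at least 1.5-fold higher, against 2.97% of all 7767 genes in that comparison. Tgtp2, an interferon-inducible GTPase, was at 53.6 CPM with and 15 CPM without an Irf1 UMI, a ratio of 3.57 (2.76 to 4.61). Tgtp1 had a ratio of 4.44 (2.57 to 7.66), Socs1 3.86 (2.56 to 5.79), Igtp 3.66 (2.68 to 4.98) and Serpina3f 3.39 (2.54 to 4.51). Compared within clusters built without target genes, Tgtp2 was still 3.61-fold and Igtp 3.91-fold higher. Tgtp1 and Tgtp2 are near-identical neighbours, so reads could be split between them. Of the gamma targets measured here that have a RefSeq window, 14 were at least 1.5-fold higher beside Irf1. A GAS match was upstream of 8 of them and an ISRE core upstream of 9. Of the rest only Psme1 and Psme2 have a window, with 0 matches of either motif, too few for a contrast. Over the whole gamma list the motifs were upstream of 12 and 14 of 24 genes. Among type I targets, a GAS match was upstream of 2 of 11 genes at least 1.5-fold higher and 2 of 36 under it. For the ISRE core these were 5 and 9.

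Summed type I targets differed less beside Irf1, at 6396 against 5749 CPM, a ratio of 1.11 (1.09 to 1.13). Ly6e and Shisa5 had 19887 and 11098 of the 68011 day 14 UMIs of this list. They stood at 0.974 and 1.02 beside Irf1 and so weighed the sum towards 1. Both genes weigh heavily in the type I sum beside every member, so its size is not comparable with that of the gamma sum. Of 55 measured, 14 were at least 1.5-fold higher. The leading ones were the nucleic acid sensor Zbp1 at 1.94 (1.60 to 2.34), the dNTP hydrolase Samhd1 at 1.62, Ifi206 at 1.72, Ifitm2 at 2.01 and Parp14 at 1.61. Irf1 also marked cells with more MHC class I presentation transcripts, at a ratio of 1.13 (1.11 to 1.15).

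Irf7, measured in 241 day 14 cells, had a type I list ratio of 1.25 (1.21 to 1.29), at 7223 against 5780 CPM, and 9 of 33 measured targets were at least 1.5-fold higher. It was the highest type I ratio among the 8 with all cells kept, but without the 384 day 14 cells of a cluster led by interferon targets it was 1.08 beside Irf7 and 1.12 beside Irf9. The gamma list ratio was 1.43 (1.34 to 1.53), with 9 of 15 targets at least 1.5-fold higher against 2.96% of all genes in that comparison. Ifi27l2a, a small interferon-inducible protein, was at 670 CPM with and 324 without an Irf7 UMI, a ratio of 2.07 (1.87 to 2.28). Ifi213 had a ratio of 2.92 (1.98 to 4.17), Trim30a 2.25, Zbp1 2.21 and Samhd1 1.86. From the gamma list, the autophagy-linked GTPase Irgm1 had 3.12 (2.13 to 4.46), Tgtp2 3.0, Serpina3f 2.64, Ifi47 2.21 and Serpina3g 2.10.

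Both lists were also higher at day 14 beside Irf9 and Stat2, whose proteins bind DNA together. Beside Irf9, in 439 cells, the gamma list ratio was 1.38 (1.31 to 1.46), with 9 of 18 targets at least 1.5-fold higher and 1 lower, against 2.25% of all genes higher. The guanylate-binding protein Gbp7 led at 2.81 (2.02 to 3.85), followed by Ifi47 at 2.29, Tgtp2 at 2.26, Igtp at 2.08 and Irgm1 at 1.95. The type I ratio was 1.15 (1.12 to 1.17), with 10 of 50 higher, led by Zbp1 at 2.04, Parp14 at 2.18, Ifi27l2a at 1.5, Ifi203 at 1.53 and Ly6a at 1.36. Beside Stat2, in 149 cells, the gamma ratio was 1.39 (1.28 to 1.51), with 2 of 7 targets higher against 2.95% of all genes, and the type I ratio was 1.16 (1.12 to 1.21), with 9 of 29 higher. Ifi47 at 2.48 (1.71 to 3.50), Ifi27l2a at 1.66 (1.45 to 1.88), Zbp1 at 1.89, Trim30a at 1.90, Ifi203 at 1.57, Cd274 at 1.55, Ly6a at 1.49, Serpina3g at 1.49 and Psme2 at 1.30 led the Stat2 lists. Ifi47, Zbp1, Ifi27l2a, Ifi203 and Ly6a were named for both factors, and sharing of this extent was not limited to them. Irf7 had Ifi47, Zbp1, Ifi27l2a, Irgm1 and Tgtp2 in common with Irf9, and Ifi47, Zbp1, Ifi27l2a, Trim30a and Serpina3g in common with Stat2.

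The other 4 members had list ratios nearer 1 at day 14. The gamma list ratio was 1.12 (1.07 to 1.16) beside Stat3, 1.09 (1.01 to 1.17) beside Stat6, 1.05 (1.01 to 1.10) beside Irf2 and 1.03 (0.987 to 1.07) beside Stat4. With every cell thinned to 1000 UMIs it was 0.947 beside Stat6 and 0.981 beside Irf2, so neither was above 1 in both settings. At least 1.5-fold higher were 3 of 21 targets beside Stat3, 2 of 17 beside Stat6, 1 of 21 beside Irf2 and 1 of 22 beside Stat4, against 2.07%, 4.84%, 3.4% and 1.9% of all genes in those comparisons. Type I ratios were 1.03 beside Irf2, 1.01 beside Stat4, 0.993 beside Stat3 and 0.916 (0.889 to 0.945) beside Stat6. The interval beside Stat6 lay below 1, but with every cell thinned to 1000 UMIs the ratio was 0.986 (0.914 to 1.06). Beside Stat3 the leading targets were the adhesion molecule Icam1 at 1.38, Serpina3g at 1.24, Gbp2 at 1.51, Socs1 at 1.60, Gbp7 at 1.38 and Isg15, a ubiquitin-like modifier, at 1.69. Beside Irf2, Socs1 stood at 1.67 (1.08 to 2.54) and Ifitm3 at 2.35, the latter 1.23 within clusters. Beside Stat6, Isg15 stood at 2.17 (1.30 to 3.46) and the RNA exonuclease Isg20 at 2.22 (1.36 to 3.47), although the summed list was lower.

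**Figure D2:**
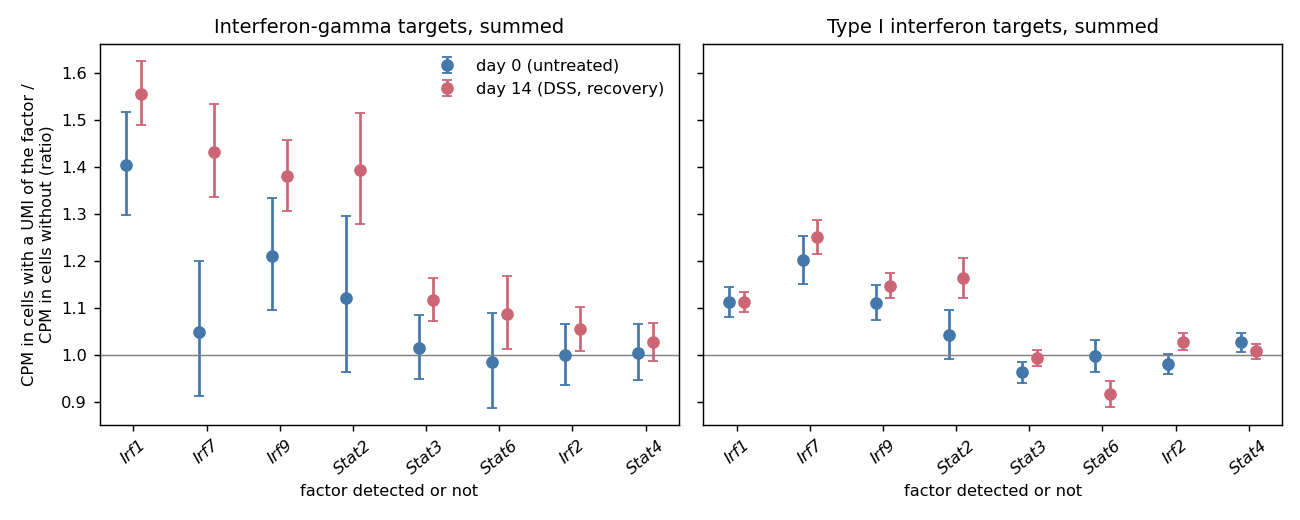
Ratio of the summed interferon-gamma and type I target lists in cells with a member UMI over cells without (vertical axis), for each factor and day, with 95% counting intervals. At day 14 Irf1, Irf7, Irf9 and Stat2 lie clearly above 1 on both lists, and Stat3, Stat4, Stat6 and Irf2 lie near 1.

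At day 0 the gamma list ratios beside Irf1, Irf9, Stat2 and Irf7 were nearer 1 than at day 14, a difference between the days that was not tested. The gamma list ratio was 1.40 (1.30 to 1.52) beside Irf1, with 3 of 9 targets at least 1.5-fold higher against 5.3% of all genes, 1.21 (1.10 to 1.33) beside Irf9 with 1 of 6 against 3.7%, 1.12 (0.964 to 1.30) beside Stat2 with 0 of 4 against 5.05%, and 1.05 (0.911 to 1.20) beside Irf7 with 0 of 4 against 5.88%. Beside the remaining members the sum lay between 0.984 and 1.02, with 0 of 17 targets higher beside Irf2 against 3.84% of all genes, 0 of 6 beside Stat6 against 3.99% and 1 of 15 beside Stat3 against 3.36%. Stat4 at day 0 had 5 of 17 higher against 2.62%, namely Cxcl10 at 2.20 (1.52 to 3.18), Serpina3g at 1.52 (1.09 to 2.11), Ifi47, Gbp2 and Gbp7, the last 3 with intervals that include 1. Most Cxcl10 UMIs lay in few cells, as given next for Irf1, so its ratio beside Stat4 depends on where those cells fall. The Irf1 value rested partly on the chemokine gene Cxcl10, with 99 UMIs in 9 Irf1-positive cells, up to 43 of them in 1 cell, and 24 UMIs in all Irf1-negative cells. Without Cxcl10 the ratio was 1.23, and without cells above 2 times the median UMIs it was 1.14. Serpina3g at 2.98 (2.04 to 4.28) and Icam1 at 2.07 (1.48 to 2.85) were the other leading gamma targets beside Irf1. Type I targets at day 0 had ratios of 1.20 (1.15 to 1.25) beside Irf7, 1.11 beside both Irf1 and Irf9 and 1.04 beside Stat2, so that the value beside Irf1 was the same on both days. With every cell thinned to 1000 UMIs the type I ratio beside Stat2 was 1.33 at day 0 and 1.22 at day 14. Ifi27l2a was 2.03-fold (1.72 to 2.38) higher beside Irf7 and 1.91-fold (1.67 to 2.17) beside Irf9 already in untreated mice. Bst2, tetherin, had 4.28 beside Irf1 and 3.67 beside Irf7, and 1.56 and 1.06 when cells were compared within clusters. Beside Irf9 at day 0, Ly6a had 1.78, Trim30a 2.12 and the proteasome activator Psme2 1.55.

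At day 14 target levels were higher in cells with more Irf1 UMIs. On that day the gamma list was at 855 CPM in the 3933 cells with no Irf1 UMI, 1155 (1103 to 1209) in 593 cells with 1, 1814 (1672 to 1965) in 116 cells with 2 and 2199 (1959 to 2460) in 50 cells with at least 3. The type I list went from 5749 to 6145, 7091 and 7626 CPM over the same cells. Such steps were not limited to Irf1. By Irf9 UMIs the gamma list at day 14 was at 904, 1238, 1288 and 1371 CPM. The type I list was then at 5775, 6549, 7075 and 7293 CPM, and for both lists the intervals overlapped from 1 UMI on. By Stat2 and Irf7 UMIs the type I list rose at every step and the gamma list did not, with 2 and 5 cells at 3 UMIs or more. At day 0 the gamma list was at 608, 852, 720 and 1061 CPM (804 to 1375) in 2979, 281, 23 and 7 cells with 0, 1, 2 and at least 3 Irf1 UMIs, and the type I list at 5558, 6241, 6256 and 5230 CPM, so neither rose at every step. By the number of Stat4 UMIs the gamma list at day 14 was at 931, 975, 885 and 976 CPM. By Stat3 UMIs it was at 911, 999, 1117 (1031 to 1207) and 946 CPM, and by Irf2 UMIs at 928, 956, 1071 (976 to 1173) and 1053 CPM. Cells with 2 UMIs of Stat3 or Irf2 thus had intervals above the level of cells with none.

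Turning the split round, cells were binned by gamma-target UMIs after thinning to 1000 UMIs, and the members were read in each bin. Psme1 and Psme2 had 1667 and 1020 of the 5141 gamma-list UMIs at day 0 and 3470 and 1991 of 10903 at day 14. A low score can therefore rest on these genes alone, and no score without them was computed. At day 14 Irf1 was at 61.9 CPM in 2148 cells with a score of 0, 85.7 at 1, 84.1 at 2, 137 at 3, 280 at 4 and 295 (229 to 374) in 90 cells with 5 or more. Irf9 went from 33.3 to 126 CPM (84.3 to 181) between the lowest and the highest bin and Irf7 from 18.7 to 78.2 (46.3 to 124). Cells with a score of at least 3 (414 cells) over cells with 0 gave ratios of 3.29 (2.76 to 3.92) for Irf1, 2.77 (1.96 to 3.89) for Irf7, 2.37 (1.81 to 3.09) for Irf9 and 2.17 (1.36 to 3.39) for Stat2. The ratios of Stat3 at 1.08, Stat6 at 1.04, Irf2 at 1.03 and Stat4 at 1.02 all had intervals that included 1. In the highest bin alone, however, Stat3 was at 187 CPM (135 to 251), against 125 CPM (115 to 135) at a score of 0. At day 0, with 99 cells at a score of at least 3, Irf1 stood at 2.11 (1.33 to 3.22) and Stat2 at 2.49 (1.02 to 5.29, 8 UMIs), whereas Irf9 stood at 1.01 and Irf7 at 0.338 (0.0404 to 1.26, 2 UMIs).

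The days were also compared within bins of the score. In cells with a score of 0 on both days, Irf1 was at a day 14 over day 0 ratio of 1.51 (1.26 to 1.82), Irf9 at 1.38 (1.08 to 1.77) and Stat3 at 1.29 (1.14 to 1.46). Irf7 in those cells stood at 0.914 (0.680 to 1.23) and Stat2 at 1.15 (0.785 to 1.69). Irf1, Irf9 and Stat3 were thus higher at day 14 also among cells in which no target UMI was seen after thinning, and for Irf7 no such difference was detectable at this depth. The score read 1000 UMIs of each cell, whereas these cells had medians of 2162.5 UMIs at day 0 and 2119 at day 14. Target UMIs outside the thinned set were not scored, so an equal score does not make the cells of the 2 days alike in targets.

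**Figure D3:**
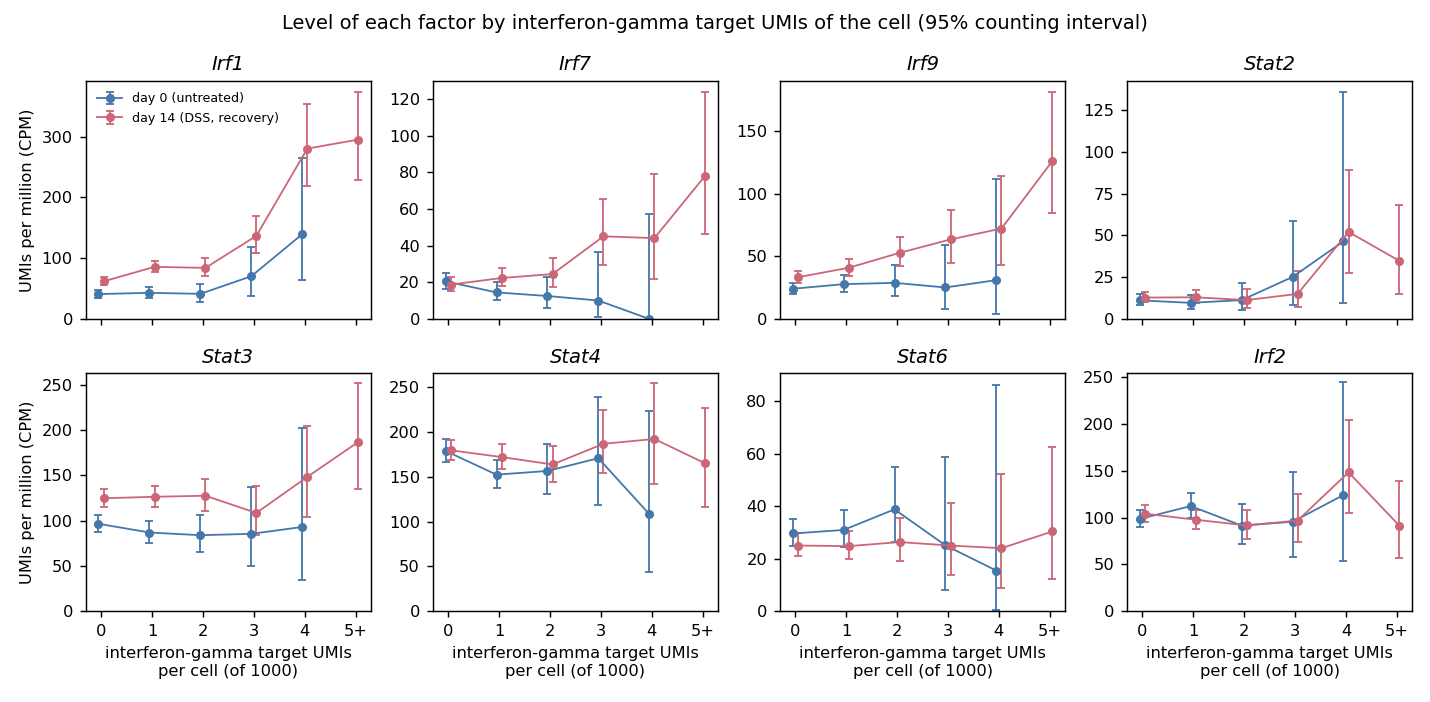
Level of each factor in CPM (vertical axis) by the number of interferon-gamma target UMIs per cell after thinning to 1000 UMIs (horizontal axis, 0 to 5 or more), by day, with 95% counting intervals; bins under 20 cells are not drawn. Irf1 at day 14 climbs from 61.9 to 295 CPM, while Stat4 stays between 164 and 192.

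Members were also found together in the same cells. Of 28 pairs, counted against the number expected within 10 depth strata, 3 pairs at day 14 had intervals above 1. Irf7 and Irf9 shared 41 cells where 24.1 were expected, a ratio of 1.70 (1.22 to 2.30). Irf1 and Irf9 shared 107 where 77.6 were expected (1.38, 1.13 to 1.67), and Irf1 and Irf7 shared 57 where 41.2 were expected (1.38, 1.05 to 1.79). Stat2 shared cells at ratios of 1.69 (0.924 to 2.84) with Irf7, 1.35 (0.945 to 1.87) with Irf1 and 1.20 (0.725 to 1.88) with Irf9, intervals that include 1. At day 0 the same 3 pairs stood at 0.765, 1.0 and 0.987, and the one interval above 1 was that of Stat4 and Irf1, with 120 cells where 98.9 were expected (1.21, 1.01 to 1.45). The intervals were not adjusted for the number of pairs.

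Cells were also grouped by how many of Irf1, Irf7, Irf9 and Stat2 they held. These 4 were put together because target levels beside each of them had been seen to be higher, and the other 4 because their ratios lay nearer 1, so the contrast between the sets was fixed by the choice and is only described. The gamma list at day 14 was at 800 CPM in 3343 cells with none of them, 1178 in 1141 cells with 1, 1366 in 181 cells with 2 and 2527 (2196 to 2895) in 27 cells with at least 3. The type I list went from 5602 to 6208, 7282 and 8931 CPM. At day 0 the gamma list was at 595, 757 and 914 CPM in 2638, 598 and 53 cells with none, 1 and 2 of them. By the number of Irf2, Stat3, Stat4 and Stat6 detected (none, 1, 2 and at least 3), the gamma list was at 647, 618, 632 and 720 CPM at day 0 and at 914, 906, 1014 and 1134 CPM at day 14. At day 14 depth moved with both counts, from a median of 2072 UMIs with none of the first 4 to 2388 with at least 3, and from 2020 to 2596 for the second 4, and its part in the steps was not tested.

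**Figure D4:**
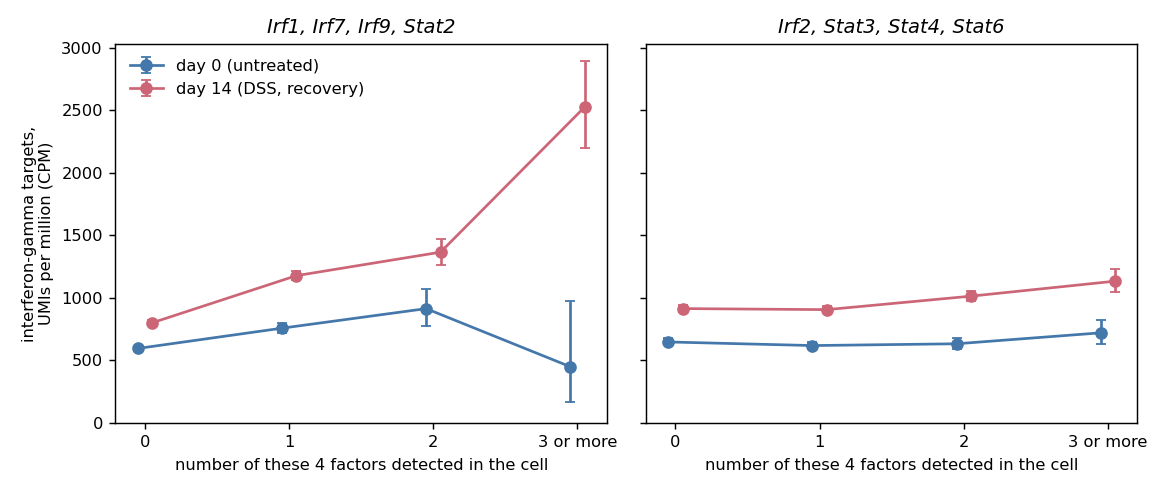
Summed interferon-gamma target level in CPM (vertical axis) by how many of Irf1, Irf7, Irf9 and Stat2, or of Irf2, Stat3, Stat4 and Stat6, a cell held (horizontal axis), by day, with 95% counting intervals. At day 14 the first set spans 800 to 2527 CPM and the second 906 to 1134, a contrast that the choice of the sets fixed, and the day 0 point at 3 or more of the first set is 1 cell.

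Across clusters of cells the day difference of Irf1 was broad. Clustering without member and target genes gave 11 clusters, of which 1 was named plasma cell-like, 1 germinal center B cell-like and 9 stayed unnamed. Irf1 was higher at day 14 with an interval above 1 in clusters 1 to 8, at ratios from 1.54 (1.03 to 2.36) in cluster 5, led by Cfp and Cd9, to 3.21 (1.60 to 6.78) in cluster 8, led by Il2rb and Cd80. It stood at 1.48 (0.730 to 3.33) in the heat shock gene cluster 9 and at 0.930 (0.437 to 2.02) in the 26 and 30 plasma cell-like cells. The germinal center-like cluster gave 11 Irf1 UMIs over 34 cells before DSS and 0 over 17 cells after recovery. The highest day 14 levels of Irf1 were 136 CPM in cluster 6, led by Egr1, Egr2 and Egr3, 135 in cluster 9 and 128 in cluster 3, led by genes that include Gpr183 and Tnfaip3.

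The day ratios of Irf9 and Stat3 also varied between clusters. Irf9 had 6 UMIs at day 0 and 62 at day 14 in cluster 4, led by Notch2, a ratio of 5.89 (2.56 to 16.7), 2.38 (1.73 to 3.28) in cluster 3 and 0.916 (0.596 to 1.44) in cluster 5. Stat3 was highest at day 14 in cluster 2, led by Emp3 and Klf3, at 174 CPM with a day ratio of 2.02 (1.65 to 2.48), and in cluster 6 at 171 CPM with 1.18 (0.876 to 1.59). In cluster 1, led by Tifa, Stat3 stood at 1.82 (1.40 to 2.39). Plasma cell-like and germinal center-like cells had the lowest day 14 levels of Stat3, at 36.5 and 34.3 CPM, and of Stat4, at 29.2 and 48.0 CPM, against 248 CPM of Stat4 in cluster 2. Irf7 was also highest at day 14 in cluster 2, at 40.1 CPM, and in plasma cell-like cells it had 10 UMIs at day 0 and 4 at day 14.

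**Figure D5:**
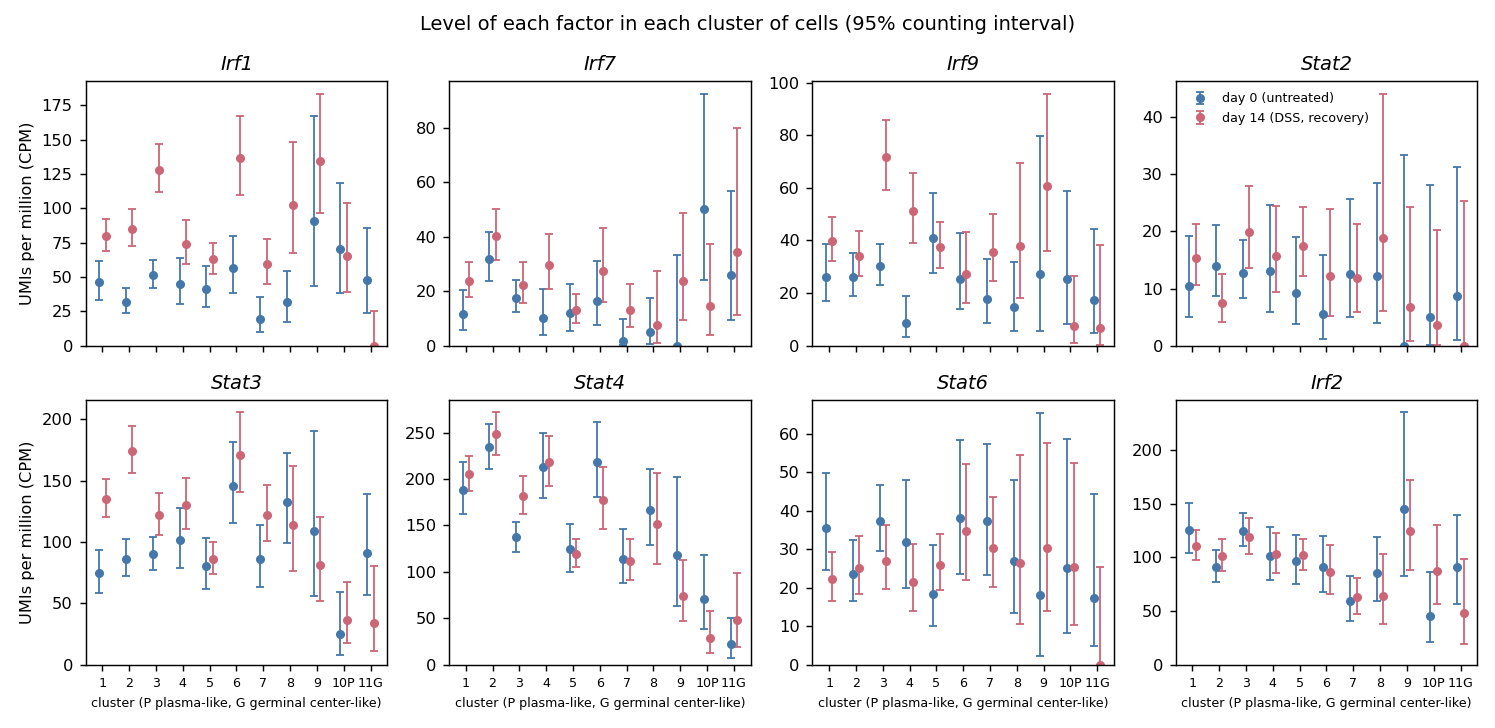
Level of each factor in CPM in each of the 11 clusters at day 0 and day 14 with 95% counting intervals. Irf1 at day 14 lies above day 0 in clusters 1 to 9, and plasma cell-like and germinal center-like cells have the lowest Stat4.

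A separate clustering that kept the target genes gave 12 clusters, and in 1 of them interferon-gamma targets led. It held 384 day 14 cells and 9 day 0 cells. Against the other 4308 day 14 cells, the levels of the members in it were 85.0 and 18.5 CPM for Irf7, a ratio of 4.60, 233 and 73.4 CPM for Irf1, a ratio of 3.18, 36.6 and 12.1 CPM for Stat2, a ratio of 3.02, and 89.3 and 38.4 CPM for Irf9, a ratio of 2.32. These are descriptions, because the target genes, which move with some members, were among the genes clustered. The members themselves were left out of it. Stat3 stood at 1.39, Irf2 at 1.28, Stat4 at 1.07 and Stat6 at 0.746. With this cluster left out, a setting added after the data were seen, the day ratio of Irf1 was 1.69 and that of Irf9 1.53, while that of Irf7 was 1.07. The gamma list ratios at day 14 were then 1.30 beside Irf1, 1.26 beside Irf9, 1.20 beside Stat2 and 1.07 beside Irf7.

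Genes most like each member in pattern were ranked by the lower bound of the same ratio over all genes at day 14. The first 3 are named, and some of them rest on few cells. For Irf9 they were Gbp7, Ifi47 and Tgtp2, and for Stat2 they were Ifi47, Ifi27l2a and S100a6 (2.26), so that 5 of these 6 were interferon targets. For Irf7 the likest were the proliferation genes Pclaf at 6.78, Top2a at 3.79 and Stmn1 at 3.17, which were 1.61, 1.86 and 1.21 within clusters. Pclaf came from 4 Irf7-positive cells, and Top2a had 22 of its 35 UMIs beside Irf7 in 1 cell. The interferon targets Irgm1 and Tgtp2 followed at ranks 4 and 5 beside Irf7. Jchain, which joins secreted antibody, was among the 3 likest for Irf1 at 3.54, Irf2 at 4.17 and Stat6 at 3.95, and stood at 2.04, 1.20 and 0.818 within clusters. For Irf1 the first 2 were the neutrophil genes S100a8, with 256 UMIs in 2 cells, and S100a9, with 120 UMIs in 3 cells. The part of such cells in the other Irf1 values was not tested, beyond the ratio without marker-bearing cells given above. After Jchain and Ctla4, the interferon targets Tgtp2, Igtp, Tgtp1, Socs1 and Serpina3f stood at ranks 5 to 9 beside Irf1. S100a8 also led for Stat6, with 115 UMIs in 1 cell, before Fkbp11 at 7.88, or 1.87 within clusters. Irf2 had Tmem176a at 5.07 and Noa1 at 4.16, the latter with up to 91 UMIs in 1 cell. Stat4 had Bmf at 2.46, Hinfp at 1.96 and Olfr889 at 2.14, and Stat3 had Fcer1g at 4.86, from 26 UMIs in 7 cells, Amigo2 at 2.71 and Tubb2b at 2.62.

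Summed target lists of Stat3 and Stat6 lay between 0.881 and 1.09 beside their own factor, while single targets stood higher. Beside Stat3 the summed list of Stat3 targets was at 1.09 (1.05 to 1.12) at day 0, with 2 of 10 measured genes at least 1.5-fold higher, Socs3 at 1.62 (1.14 to 2.30) and Bcl6 at 1.77 (0.951 to 3.20), against 3.36% of all genes. It was at 1.06 (1.03 to 1.09) at day 14, with 0 of 10 against 2.07%. Myc, a growth regulator downstream of Stat3, stood at 1.5 (1.18 to 1.88) and 1.43 (1.18 to 1.72) on the 2 days. Beside Stat6 the IL-4 target list was at 0.938 (0.927 to 0.949) at day 0 and 0.881 (0.871 to 0.891) at day 14. Its member Il4i1, an amino acid oxidase, stood at 2.33 (1.44 to 3.62) at day 14. At day 14 Cd74, H2-Ab1, H2-Aa and H2-Eb1 had 308882, 75319, 72769 and 49117 of the 512770 UMIs of the IL-4 list. The sum thus reads mostly these genes and says little of the rest of the list. Of the Stat4 target list, 3 of 7 genes (Ifng, Il18rap and Gzmb) had 0 UMIs on both days and 1 was measured, the proprotein-cleaving enzyme gene Furin, with 83 and 129 UMIs and a day ratio of 1.08 (0.817 to 1.45). The Stat4 transcript itself was the most abundant of the 8.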

How the data were processed

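Per the file headers, the authors made the deposited count matrices (UMIs of each gene in each barcode) with Cell Ranger 3.0.1. The submitters' processing notes name build mm10 and Seurat 3.0, with strand, annotation and cell calling not given in the sources used here. Tables of the same cells, also deposited, hold natural log values, taken of 1 plus the counts scaled to 10000 per cell. Recomputed from the matrices, all 53946130 and 76934724 values agreed within a relative tolerance of 0.001. These tables leave out 86 of 3376 and 88 of 4780 barcodes by an unstated filter. They defined the cells used here, and every level came from the counts.

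Members and lists were chosen with earlier results of these data known. Counts were summed per library, cluster or bin and divided by all UMIs outside immunoglobulin and mitochondrial genes. Sums have exact Poisson, ratios exact conditional and shares exact Clopper-Pearson intervals (95%, SciPy 1.17.1, Python 3.11.15). A ratio of at least 1.5 was called as a size among genes with at least 50 UMIs, or an expected count of at least 10 beside a member. List genes needed 20 UMIs. Targets named for a member are up to 5 per list and day with the highest lower bound, and the likest genes are the first 3 by that bound outside immunoglobulin, mitochondrial, ribosomal protein and predicted genes. Of the family and upstream lists, the genes past 1.5-fold and the most abundant one are named. Of these, the text gives the leading ones at day 0 and those of Stat3, Stat4, Stat6 and Irf2 in part.

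Clusters used 2000 variable genes, 20 components, 20 neighbours and resolution 0.8 in Scanpy 1.11.5 with Leiden clustering from igraph 0.11.9 and leidenalg 0.10.2, after scikit-learn 1.9.0 had found the neighbours. Cells were clustered without members and targets, except where stated. No doublets were removed, and leaving out cells above 2 times the median UMIs was an alternative. Other alternatives were TMM (edgeR 4.0.16) and median-of-ratios factors (DESeq2 1.42.0, both in R 4.3.3), other minimums, thinning depths, depth deciles, comparison within clusters and the removal of marker-bearing cells. The ratio and interval computations were tested on Poisson counts simulated without further spread between cells. That test does not cover genes whose UMIs are clumped in few cells. Promoter windows came from RefSeq, 32851 windows of 27025 genes.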

Additional observations from a re-analysis of the deposited data

Results flagged for a closer look

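Irf1 in the germinal center B cell-like cluster went against clusters 1 to 8. It had 11 UMIs in 34 cells at day 0 (47.8 CPM, 23.8 to 85.5) and 0 UMIs in 17 cells at day 14, a day 14 over day 0 ratio of 0 with an upper bound of 0.629. In each of clusters 1 to 8 the ratio was above 1 with its interval, while it was 1.48 (0.730 to 3.33) in cluster 9 and 0.930 (0.437 to 2.02) in the plasma cell-like cluster 10. The difference between the clusters was not tested, because each day is 1 library. The exact interval of the count of 0 in those 17 cells reaches 25.3 CPM.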

How the results depend on the processing

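Of 88 alternative values of the day ratios, 86 stayed within the counting interval of the reported value. All 56 for pairs did so, as did 22 of 24 for detection and 22 of 24 for the score bins. For the target lists 162 of 224 did. A change of side was looked for only in values at least 1.5-fold from 1, and none of these crossed 1. Few list and day ratios were that large. Some values nearer 1 did cross it, among them Stat2 detection and the thinned gamma list ratios beside Stat6 and Irf2 at day 14 and Irf7 at day 0. The list intervals are narrow, so many of the differences below are small, and why they arose was not tested. Leaving out the interferon target cluster, added after seeing the data, gave day ratios of 1.69 for Irf1 and 1.07 for Irf7. Thinned to 500 UMIs, the detection ratio between the days was 0.935 for Stat2 and 1.31 for Irf9, against 1.45 and 1.84 at 1000 UMIs. The ratio of score bins at day 14 was 1.21 for Stat4 when scored at 500 UMIs and 2.69 for Irf1 at 1500. Genes at least 1.5-fold higher and lower numbered 1729 and 2485 with a minimum of 1 UMI, 224 and 763 with 20, and 40 and 130 with 200, against 117 and 441 with 50, and 180 were higher with TMM and 182 with median-of-ratios factors. Within depth deciles, the gamma list ratios at day 0 were 0.946 beside Stat3, 0.921 beside Irf2 and 1.08 beside Irf9. At day 14 those of the type I list were 1.02 beside Stat3, 1.03 beside Stat4, 1.14 beside Irf1, 1.05 beside Irf2 and 1.18 beside Irf9. For the type I list at day 0 they were 1.15 beside Irf1, 1.0 beside Irf2 and 1.15 beside Irf9. With every cell thinned to 1000 UMIs, the type I list ratios at day 0 were 1.33 beside Stat2, 1.06 beside Stat4 and 1.04 beside Irf1. Day 14 ratios of the type I list were 1.22 beside Stat2, 0.986 beside Stat6, 1.08 beside Irf2, 1.38 beside Irf7 and 1.17 beside Irf9. At day 0 those of the gamma list were 0.903 beside Stat3, 0.853 beside Stat4, 1.22 beside Irf1, 0.797 beside Irf7 and 1.34 beside Irf9. For the gamma list at day 14 they were 1.07 beside Stat3, 0.947 beside Stat6, 1.69 beside Irf1, 0.981 beside Irf2 and 1.62 beside Irf7. Within clusters, the type I list ratios at day 0 were 1.02 beside Stat3, 1.01 beside Irf2 and 1.14 beside Irf7. Day 0 ratios of the gamma list were 0.872 beside Stat6 and 1.28 beside Irf1. Without cells above 2 times the median UMIs, the type I list ratios at day 0 were 1.15 beside Stat2, 1.01 beside Irf2 and 1.17 beside Irf9. At day 14 those of the type I list were 1.27 beside Stat2, 1.13 beside Irf1, 1.05 beside Irf2 and 1.32 beside Irf7. For the gamma list at day 0 they were 0.933 beside Stat4 and 1.14 beside Irf1. Without the interferon target cluster, the gamma list ratios at day 14 were 1.20 beside Stat2, 1.30 beside Irf1, 1.07 beside Irf7 and 1.26 beside Irf9. Day 14 ratios of the type I list were 1.08 beside Stat2, 0.976 beside Stat3, 1.03 beside Irf1, 1.08 beside Irf7 and 1.12 beside Irf9. With Psme1 and Psme2 taken off the list, the gamma list ratios at day 14 were 1.64 beside Stat2, 1.16 beside Stat3, 2.08 beside Irf1, 1.82 beside Irf7 and 1.55 beside Irf9. At day 0 those of the gamma list were 1.07 beside Stat4, 1.82 beside Irf1, 0.930 beside Irf2 and 1.05 beside Irf9. With Cxcl10 taken off the list, the gamma list ratio at day 0 was 1.23 beside Irf1. The settings without the interferon target cluster, without Psme1 and Psme2 and without Cxcl10 were chosen after seeing the data, and the first removes the cells richest in targets by its construction. Depth limits the rarest members most: 92 Stat2 UMIs at day 0 left 4 gamma targets with an expected count of 10. No paired analysis was possible because each group is 1 library. Leaving out a replicate was not possible for the same reason.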

Other observations

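The barcodes that the deposited tables leave out carried the members too. There were 86 at day 0 and 88 at day 14, with 2515 and 3898 UMIs of epithelial markers, 2091 and 1543 of T or NK cell markers and 4 and 1766 of neutrophil markers. Stat4 was at 36.2 and 33.2 CPM in them, 0.216 (0.115 to 0.370) and 0.189 (0.0976 to 0.331) of its level in the kept cells of the same day. Irf1 was at 80.7 CPM at day 0, 1.85 times (1.22 to 2.71) the kept level, and at 77.5 CPM at day 14, 0.899 times (0.594 to 1.31). Irf9 at day 14 had 5 UMIs, 0.326 times (0.105 to 0.765) the kept level, and Stat2 had 11 UMIs, 2.17 times (1.06 to 3.98). These barcodes mix cell types, and no class among them was told apart here.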
